A study of Mus musculus with 6 samples.

Results

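The genes described here encode the proteasome: its core rings, the interferon-inducible catalytic subunits that turn it into the immunoproteasome, its regulator, its activators and inhibitor, and its assembly chaperones. They are the rows of the deposited gene table named Psma, Psmb, Psmc, Psmd, Psme, Psmf or Psmg with a number, without the rows marked as pseudogenes. The rule takes 49 of 54433 genes by name alone, though it was chosen with earlier results of these data known. Messenger RNA was sequenced from MC3T3-E1, a mouse osteoblast-like line derived from calvaria, in 6 libraries. The 3 FR libraries came from fluoride-resistant cells, which had been kept in a fluoride gradient until they grew normally and which tolerated 30 ppm. The treatment protocol puts that gradient at 10 ppm and the FR sample descriptions at 30 ppm. The 3 WT libraries came from wild-type cells of the same line in Dulbecco's modified Eagle medium. The design cannot tell being resistant from being exposed to fluoride, and the series title speaks of mice while the sample labels describe the cell line. No label states that libraries sharing a group were grown apart, or how many resistant clones they hold, so the p-values cover only the spread among the sequenced libraries, which may be technical.

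The proteasome is the protease complex that degrades most ubiquitin-tagged proteins in the cytosol and nucleus. Its hollow core is built from stacked rings of alpha and beta subunits, and a few of the beta subunits carry the active sites. A regulator with ATPases and ubiquitin receptors sits on the core, unfolds the tagged protein and feeds it in. Interferons induce replacement beta subunits, which join newly made cores in place of the constitutive catalytic subunits and change the peptides offered to MHC class I. In bone-forming cells the proteasome also sets the half-life of regulators such as Runx2.

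The deposited table summed to 19246119 to 25185697 counts in the FR libraries and 25700497 to 27140662 in the WT libraries. Levels are given as CPM, counts scaled to a common library size with TMM factors, and 3 counts in a library equalled between 0.110 and 0.156 CPM. Levels of different genes are set side by side only per length, as CPM per kilobase of the deposited gene length. Markers of the osteoblast lineage were Runx2, Col1a1, Col1a2, Sp7, Alpl and Bglap. Their summed level was 3780 to 3811 CPM in FR and 14229 to 14573 CPM in WT, and the 3 of them that were tested were lower in FR. The collagen genes Col1a2, at a mean of 3104 CPM in FR and 9282 CPM in WT, and Col1a1, at 635 and 5055 CPM, made up nearly all of it. Runx2 differed less, at a mean of 57.2 CPM in FR and 69.8 CPM in WT, a log2 fold change of −0.29. Sp7, Alpl and Bglap, which mark committed and mature osteoblasts, did not pass the filter on low counts. Haematopoietic cells carry the immunoproteasome without induction, and 7 of their markers summed to 9.10 to 10.6 CPM in FR and 0.819 to 1.61 CPM in WT. Csf1r, at 7.13 ± 0.645 CPM in FR and 0.596 ± 0.204 CPM in WT (SD, n = 3 each), made up most of the FR sum. Csf1r and Cd68 were higher in FR. The other markers, Ptprc, Adgre1, Itgam, Cd3e and Cd79a, did not pass the filter on low counts, with at most 5 counts in any library. Cd3e was at 0 in all 6 libraries, and Adgre1 had 1 count in WT3 and 0 elsewhere. The part of these shifts in the results was not tested, and in bulk RNA fewer cells of a type and less RNA per cell cannot be told apart.

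FR was compared with WT by edgeR's quasi-likelihood test over 14889 genes, with Benjamini-Hochberg adjustment over all of them and a threshold of 0.05. Of the 49 proteasome genes, 47 passed the filter on low counts. Of these, 33 (70.2%) passed the test in either direction, against 70.1% of all tested genes: 18 were higher in FR (38.3%, against 34.6% of all tested genes) and 15 were lower (31.9%, against 35.5%), which is near the background in both directions. The changes were small: 43 of 47 (91.5%) lay within 0.5 of 0 on the log2 scale, against 62.5% of all tested genes, and 21 of the 33 that passed the test differed by under 1.2-fold. All tested genes were not matched to the proteasome genes by level. The median log2 fold change of the 47 was 0.04, against 0.00 for all tested genes. Of the 47, 2 were at least 2-fold lower, against 11.4% of all tested genes, and with a highest log2 fold change of 0.40 none was 2-fold higher, against 7.4%. Those 2 were Psmb8, a catalytic subunit of the immunoproteasome, and Psme2b, a near relative of an activator gene. Psme2b had few counts and passed the filter only through WT, and its value is uncertain. The groups did not overlap in CPM for 32 of 47 (68.1%), against 72.4% of all tested genes. The sum over all proteasome genes was 4060 ± 15.8 CPM per kilobase in FR and 4051 ± 62.9 in WT (SD, n = 3 each).

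**Figure D1:**
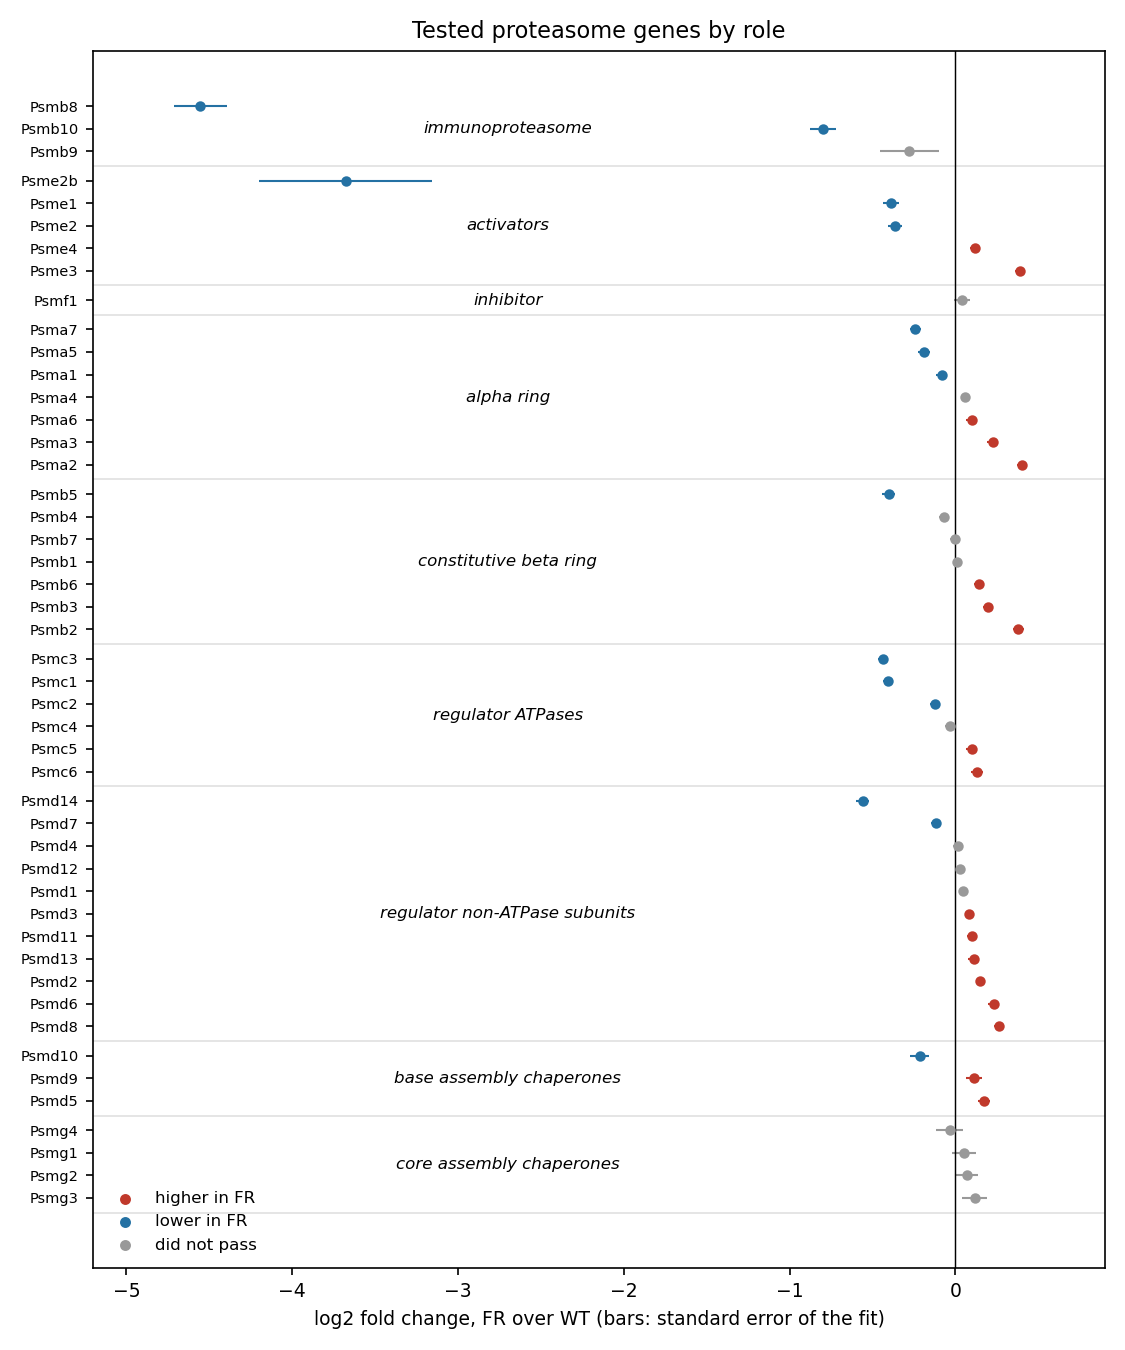
Log2 fold change of FR over WT for each tested proteasome gene, by role, with the standard error of the edgeR fit (red higher, blue lower, grey did not pass). Psmb8 at −4.55 and Psme2b at −3.68 lie far below the rest, which sit between −0.80 and 0.40.

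The genes that did not pass the filter are forms of other tissues. Psma8, the alpha subunit of the testis proteasome, had 0 counts in all 6 libraries. Psmb11, the catalytic subunit of thymic cortical epithelium, had 0, 1 and 0 counts in FR1 to FR3 and 0.99, 0 and 2 in WT1 to WT3. Neither was detectable beyond single counts at this depth.

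The immunoproteasome genes held the lowest log2 fold change of all proteasome genes, that of Psmb8, and differed among themselves. Psmb8 replaces the chymotrypsin-like subunit Psmb5, Psmb9 replaces the caspase-like subunit Psmb6, and Psmb10 replaces the trypsin-like subunit Psmb7. The 250 bases before the gene start are shown for the 3 inducible subunits and for Psmb5, since Psmb8 and Psmb5 fill the same position in the ring and both were lower in FR. They are RefSeq windows on GRCm38.p6, a build other than that of the counts. Psmb8 lies at chr17:34197945-34198194 on the plus strand and Psmb9 at chr17:34187331-34187580 on the minus strand. Psmb10 lies at chr8:105938393-105938642 on the minus strand and Psmb5 at chr14:54617996-54618245 on the minus strand. Capitals mark a STAT-type palindrome, TTCNNNGAA, in Psmb8 and the core of the antioxidant response element, TGACNNNGC, in Psmb5.
Psmb8: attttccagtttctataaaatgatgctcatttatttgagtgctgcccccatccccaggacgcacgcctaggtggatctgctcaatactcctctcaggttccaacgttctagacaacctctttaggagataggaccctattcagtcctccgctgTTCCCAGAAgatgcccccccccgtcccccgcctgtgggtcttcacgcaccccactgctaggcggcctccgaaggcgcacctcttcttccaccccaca
Psmb9: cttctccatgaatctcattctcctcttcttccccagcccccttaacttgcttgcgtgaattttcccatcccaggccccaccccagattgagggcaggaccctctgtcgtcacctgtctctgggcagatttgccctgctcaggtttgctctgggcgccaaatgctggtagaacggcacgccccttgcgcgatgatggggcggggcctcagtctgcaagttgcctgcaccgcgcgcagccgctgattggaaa
Psmb10: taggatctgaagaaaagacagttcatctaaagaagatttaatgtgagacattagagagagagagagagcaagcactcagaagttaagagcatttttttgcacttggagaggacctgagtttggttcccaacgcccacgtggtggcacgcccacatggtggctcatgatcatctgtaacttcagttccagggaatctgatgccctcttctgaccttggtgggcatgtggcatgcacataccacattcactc
Psmb5: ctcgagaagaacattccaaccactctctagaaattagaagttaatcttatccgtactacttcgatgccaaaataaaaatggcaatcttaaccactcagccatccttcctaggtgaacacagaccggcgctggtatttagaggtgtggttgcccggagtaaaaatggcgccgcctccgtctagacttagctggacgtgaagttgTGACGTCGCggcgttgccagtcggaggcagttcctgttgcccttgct

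Motifs were searched on both strands in the windows of all 32851 RefSeq entries, of which 44 windows belonged to 41 of the proteasome genes. The core of the interferon-stimulated response element, searched as GAAA and GAAA with any 2 bases between them, was in 2.98% of all windows and in those of Psmb3, Psmd4 and Psmd9, all of them constitutive or chaperone genes. TTCNNNGAA was in 7.02% of all windows and in those of Psmb8, with its first letter 97 bases before the start, and Psmg1. TGACNNNGC was in 10.2% of all windows and in those of Psmb5, Psmb6, Psmc6, Psmd12 and Psmd9. The printed windows of Psmb8 and Psmb5 held 1 match each and those of Psmb9 and Psmb10 held 0, and each match is a description only.

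Psmb8 (ENSMUSG00000024338) was close to the detection limit in FR. It had 11, 20 and 12 counts in FR1 to FR3, against 402, 389 and 429 counts in WT1 to WT3. Scaled, that was 0.571, 0.799 and 0.567 CPM in FR and 14.7, 15.1 and 16.7 CPM in WT. Every FR library was far below every WT library. Psmb8 fell to 0.646 ± 0.133 CPM in FR, against 15.5 ± 1.07 CPM in WT (SD, n = 3 each), a 23.5-fold difference. Its log2 fold change was −4.55 ± 0.16 (SE) with an adjusted p of 1.83e-20 in edgeR's quasi-likelihood test. Of all 14889 tested genes, 146 (0.981%) had a log2 fold change as low or lower.

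Psmb10 (ENSMUSG00000031897) also fell. It had 12.6, 12.7 and 11.8 CPM in FR and 22.5, 19.9 and 22.2 CPM in WT, with no overlap between the groups. Its mean was 12.4 ± 0.524 CPM in FR and 21.5 ± 1.41 CPM in WT (SD, n = 3 each), 1.74-fold lower. The log2 fold change was −0.80 ± 0.08 (SE), with an adjusted p of 3.06e-10 in edgeR.

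Psmb9 (ENSMUSG00000096727) did not pass the test. It had 2.77, 2.53 and 3.35 CPM in FR and 3.05, 3.67 and 3.74 CPM in WT, so the highest FR library lay above the lowest WT library. The log2 fold change was −0.28 ± 0.18 (SE), with an adjusted p of 0.163 in edgeR and of 0.0754 to 0.406 over the alternatives. At 2.88 ± 0.425 CPM in FR and 3.49 ± 0.381 CPM in WT (SD, n = 3 each) it was a low gene in both groups, and some of its counts were shared by estimation with other genes. Of the 3 immunoproteasome genes, then, 2 were lower in FR (66.7%, against 35.5% of all tested genes). Of the rest, 0 were higher, against 34.6% of all tested genes, and 1 did not pass. DESeq2 and limma-voom likewise called 0 of them higher, and 0 reached an unadjusted p under 0.05 in that direction. Both follow from the log2 fold changes, which were below 0 for all 3 genes in every alternative.

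**Figure D2:**
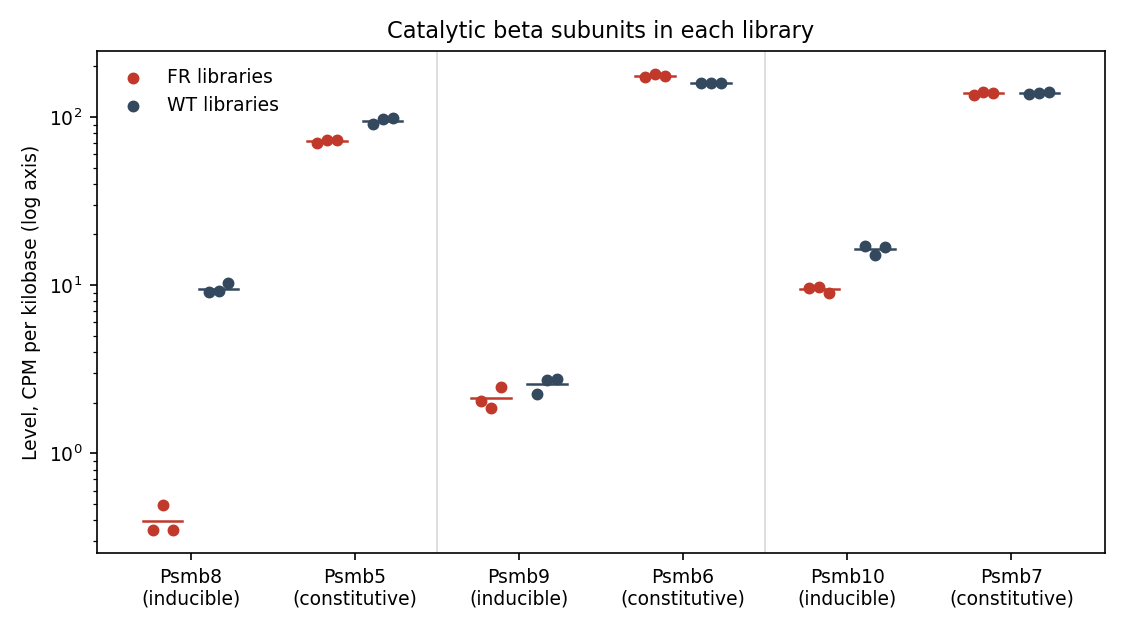
Level of the 3 inducible catalytic subunits and their constitutive counterparts in each library, in CPM per kilobase on a log axis, with FR left of WT, points for libraries and lines for group means. Psmb8 sits at 0.348 to 0.491 in FR and at 9.05 to 10.3 in WT, while the FR and WT points of Psmb9 and of Psmb7 overlap.

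The order of the inducible subunits per length differed between the groups. In FR, Psmb10 had 9.43 ± 0.399, Psmb9 2.13 ± 0.314 and Psmb8 0.397 ± 0.0816 CPM per kilobase (SD, n = 3). In WT, Psmb10 had 16.4 ± 1.07, Psmb8 9.53 ± 0.656 and Psmb9 2.58 ± 0.282 CPM per kilobase (SD, n = 3). Psmb8 was thus the lowest of the 3 in FR and the second in WT, with gaps larger than the spread between libraries. Within the summed inducible level, Psmb8 made up 3.31% ± 0.657 in FR and 33.4% ± 1.41 in WT (SD, n = 3 each). Psmb10 made up 78.8% ± 2.44 in FR and 57.5% ± 2.40 in WT. Psmb9 made up 17.9% ± 2.85 in FR and 9.05% ± 1.04 in WT.

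The constitutive counterparts moved little, and not together. Psmb5 (ENSMUSG00000022193), the chymotrypsin-like subunit, had 63.1, 65.5 and 65.5 CPM in FR and 81.6, 86.9 and 88.3 CPM in WT, with no overlap. It fell 1.32-fold, with a log2 fold change of −0.40 ± 0.04 (SE) and an adjusted p of 2.94e-10 in edgeR. Psmb6 (ENSMUSG00000018286), the caspase-like subunit, had 137, 144 and 139 CPM in FR and 128, 127 and 127 CPM in WT. It rose, with a log2 fold change of 0.14 ± 0.03 (SE) and an adjusted p of 0.000204 in edgeR. Psmb7 (ENSMUSG00000026750), the trypsin-like subunit, had 157, 163 and 160 CPM in FR and 158, 160 and 164 CPM in WT. The Psmb7 values overlapped, and its adjusted p was 0.894 in edgeR.

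The ratio of each inducible subunit to its counterpart needs no scaling between libraries. Per length, Psmb8 stood at 0.5003%, 0.674% and 0.478% of Psmb5 in FR and at 9.97%, 9.59% and 10.5% in WT, a log2 difference of −4.20. Psmb10 stood at 7.12%, 6.90% and 6.49% of Psmb7 in FR and at 12.6%, 11.01% and 11.9% in WT, a log2 difference of −0.79. Neither ratio overlapped between the groups. Each gave p = 0.1 in the exact two-sided permutation test, the smallest p that 3 libraries against 3 allow. Psmb9 stood at 1.19%, 1.03% and 1.42% of Psmb6 in FR and at 1.41%, 1.71% and 1.73% in WT, a log2 difference of −0.42. The Psmb9 ratios overlapped by 1 library of each group, with p = 0.2 in the same exact permutation test. The 3 inducible subunits together held 3.01% ± 0.0699 of the per-length level of the catalytic subunits in FR and 6.76% ± 0.270 in WT (SD, n = 3 each). In both groups the catalytic transcripts were thus mostly constitutive.

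**Figure D3:**
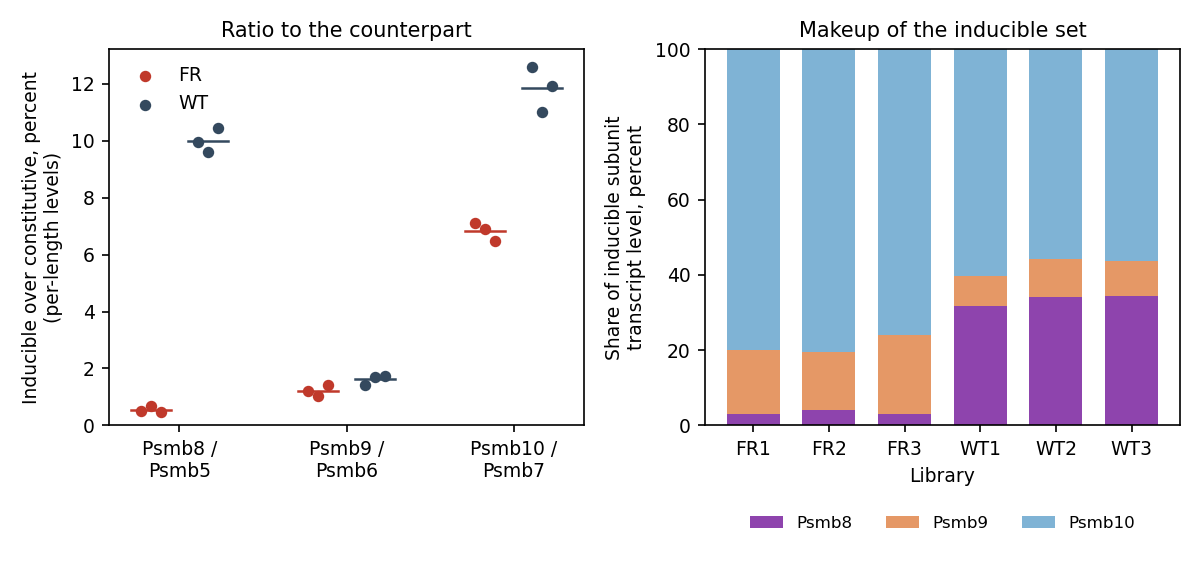
Left, per-length level of each inducible subunit as a percent of its constitutive counterpart in each library (points, with lines for group means), FR left of WT; right, the share of Psmb8, Psmb9 and Psmb10 in the summed inducible level of each library, in percent. Psmb8 over Psmb5 is under 1% in every FR library and near 10% in every WT library, and Psmb8 holds 3.31% of the inducible level in FR and 33.4% in WT.

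The activators cap the core in place of the regulator and open its gate without ATP or ubiquitin. Psme1 and Psme2 encode the alpha and beta subunits of the interferon-inducible ring. Psme1 (ENSMUSG00000022216) had 35.4, 37.0 and 38.9 CPM in FR and 49.2, 47.8 and 49.0 CPM in WT. It fell, with a log2 fold change of −0.39 ± 0.05 (SE) and an adjusted p of 2.71e-08 in edgeR. Psme2 (ENSMUSG00000079197) had 55.7, 60.9 and 56.9 CPM in FR and 71.1, 75.9 and 77.1 CPM in WT. It fell by a like amount, with a log2 fold change of −0.37 ± 0.04 (SE) and an adjusted p of 1.06e-08 in edgeR. The groups did not overlap for either gene. Psme2b, a near relative of Psme2, was estimated at 1.82, 3.85 and 0 counts in FR and 40.4, 32.6 and 24.4 counts in WT. It passed the filter only through WT, and since its reads can be shared with Psme2 its value is uncertain.

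The other activators went the other way. Psme3 (ENSMUSG00000078652), which forms the nuclear ring of identical subunits that is not induced by interferon, had 201, 206 and 189 CPM in FR and 152, 151 and 153 CPM in WT. It rose 1.31-fold, with a log2 fold change of 0.39 ± 0.03 (SE) and an adjusted p of 7.27e-12 in edgeR. Psme4 (ENSMUSG00000040850), the large single-chain activator, had 166, 163 and 167 CPM in FR and 157, 151 and 150 CPM in WT. It rose slightly, with a log2 fold change of 0.12 ± 0.03 (SE) and an adjusted p of 0.00108 in edgeR. Neither Psme3 nor Psme4 overlapped between the groups. Psmf1 (ENSMUSG00000032869), which encodes the inhibitor PI31, had 35.4, 35.1 and 34.9 CPM in FR and 34.3, 33.9 and 34.4 CPM in WT. Its libraries did not overlap, but with a log2 fold change of 0.04 ± 0.05 (SE) and an adjusted p of 0.501 it did not pass edgeR's test.

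The alpha ring forms the gate of the core. Of its 7 tested genes 3 were higher (42.9%, against 34.6% of all tested genes) and 3 lower (42.9%, against 35.5%). The median log2 fold change of the 7 was 0.06. Psma2 (ENSMUSG00000015671) had the highest log2 fold change of the ring, with 146, 150 and 147 CPM in FR and 110, 116 and 109 CPM in WT. It rose 1.32-fold, with a log2 fold change of 0.40 ± 0.03 (SE) and an adjusted p of 7.93e-12 in edgeR. Psma7 (ENSMUSG00000027566) had the lowest, with 148, 156 and 147 CPM in FR and 170, 182 and 181 CPM in WT. It fell, with a log2 fold change of −0.24 ± 0.03 (SE) and an adjusted p of 1.48e-07 in edgeR. Neither gene overlapped between the groups. Psma3 (0.23) and Psma6 (0.10) also rose on the log2 scale, and Psma5 (−0.19) and Psma1 (−0.08) fell, while Psma4 did not pass at 0.06. The Psma1 values overlapped between the groups. The call of Psma1 was lost without FR2 or WT2 and in DESeq2, and that of Psma6 without FR3 or WT1 and with no filter.

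Per length, the alpha genes were closer to each other in FR. The highest alpha gene stood at 3.37 ± 0.0334 times the lowest in FR and at 5.07 ± 0.187 times in WT (SD, n = 3 each). Psma2 was the lowest in all 6 libraries, at 50.7 ± 0.678 CPM per kilobase in FR and 38.4 ± 1.38 in WT. The highest was Psma4 in every FR library and Psma7 in every WT library. These levels, which gene is highest and the 2 spreads all rest on the deposited gene length.

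In the constitutive beta ring 3 of 7 genes were higher (42.9%, against 34.6% of all tested genes) and 1 was lower (14.3%, against 35.5%). The median log2 fold change of the ring was 0.01. Psmb2 (ENSMUSG00000028837), a non-catalytic subunit, had 157, 154 and 153 CPM in FR and 118, 124 and 115 CPM in WT. It rose 1.30-fold, with a log2 fold change of 0.38 ± 0.03 (SE), an adjusted p of 2.27e-11 in edgeR and no overlap. Psmb3, also non-catalytic, rose by 0.20 ± 0.03 (SE) on the log2 scale. Psmb1 (0.01) and Psmb4 (−0.07), which have no active site, did not pass. The adjusted p of Psmb4 was 0.0547 in edgeR, and it was called lower with other scaling, with no filter and without FR2 or WT1. Psmb5 was the lowest constitutive beta gene per length in all 6 libraries, at 72.0 ± 1.57 CPM per kilobase in FR and 95.2 ± 3.93 in WT (SD, n = 3 each). The highest beta gene stood at 3.15 ± 0.0769 times the lowest in FR and at 2.38 ± 0.0453 times in WT, so this ring was more uneven in FR, unlike the alpha ring.

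The regulator is made of a ring of ATPases and of non-ATPase subunits that bind and trim ubiquitin chains. Of its 6 ATPases 2 were higher, against 34.6% of all tested genes, 3 were lower, against 35.5%, and 1 did not pass. Psmc3 (ENSMUSG00000002102), whose tail docks into the alpha ring and helps to open the gate, had 174, 179 and 174 CPM in FR and 235, 241 and 239 CPM in WT. It fell 1.36-fold, with a log2 fold change of −0.44 ± 0.03 (SE) and an adjusted p of 3.29e-14 in edgeR. Psmc1, another ATPase with a gate-opening tail, fell by 0.41 on the log2 scale, and Psmc2 fell by 0.13. None of these 3 overlapped between the groups. Psmc6 (ENSMUSG00000021832) had 179, 169 and 185 CPM in FR and 169, 163 and 155 CPM in WT. It rose, with a log2 fold change of 0.13 ± 0.04 (SE) and an adjusted p of 0.004 in edgeR, although the FR2 value of 168.7 lay just below the WT1 value of 168.9, so the groups overlapped. Psmc5 rose by 0.10, a call lost without WT1 and with no filter, and Psmc4 did not pass at −0.03.

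Of the 11 non-ATPase subunits 6 were higher (54.5%, against 34.6% of all tested genes) and 2 lower (18.2%, against 35.5%), and their median log2 fold change was 0.08. Psmd14 (ENSMUSG00000026914) encodes the metalloprotease that cuts the ubiquitin chain from the substrate. It had 68.6, 73.6 and 72.1 CPM in FR and 102, 105 and 110 CPM in WT, far from overlap. It fell 1.48-fold, with a log2 fold change of −0.56 ± 0.04 (SE) and an adjusted p of 1.07e-13 in edgeR. Per length it was the lowest gene of this role in FR at 46.4 ± 1.67 CPM per kilobase, against 68.5 ± 2.49 in WT (SD, n = 3 each). Psmd7, its partner in the lid, fell by 0.12 on the log2 scale. Psmd8 (ENSMUSG00000030591), a lid subunit, had 151, 151 and 148 CPM in FR and 124, 127 and 125 CPM in WT. It rose, with a log2 fold change of 0.26 ± 0.03 (SE), an adjusted p of 1.28e-08 in edgeR and no overlap.

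The other subunits that rose were Psmd6 (0.23), Psmd2 (0.15), Psmd13 (0.11), Psmd11 (0.10) and Psmd3 (0.08), all as log2 fold changes with no overlap between the groups. Psmd2, a large scaffold of the base that binds ubiquitin-like domains, was among the highest proteasome genes per length, at 225 ± 2.14 CPM per kilobase in FR and 203 ± 2.54 in WT (SD, n = 3 each). The calls of Psmd11 and Psmd3 were lost with no filter, and that of Psmd3 also without FR2 or WT1. Psmd1 (0.05), Psmd12 (0.03) and the ubiquitin receptor Psmd4 (0.02) did not pass.

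Summed per length, the ATPases had 531 ± 5.44 CPM per kilobase in FR and 585 ± 5.45 in WT, and the non-ATPase subunits 1202 ± 11.1 in FR and 1154 ± 16.2 in WT (SD, n = 3 each). The alpha ring summed to 807 ± 8.29 in FR and 824 ± 18.4 in WT, and the constitutive beta ring to 1139 ± 21.3 in FR and 1085 ± 15.9 in WT. Against these sums the immunoproteasome was small, at 11.96 ± 0.140 in FR and 28.5 ± 1.39 in WT, a log2 ratio of −1.25. These sums were not tested. With libraries scaled to the sum of per-length levels, the ratio of the non-ATPase subunits turned from 0.06 to −0.0008.

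**Figure D4:**
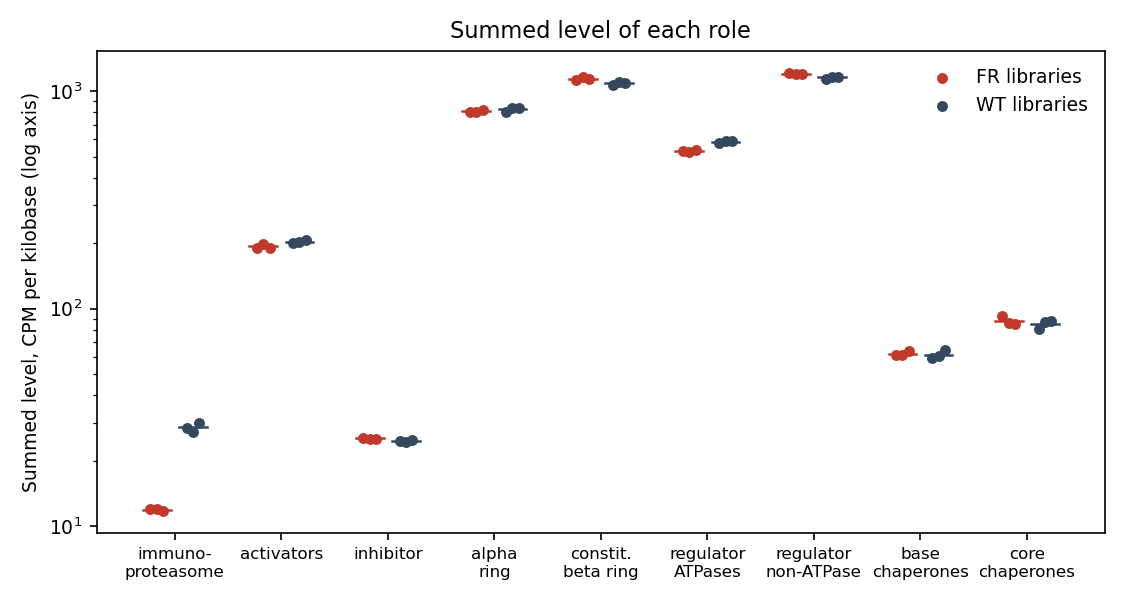
Summed per-length level of each role in every library, in CPM per kilobase on a log axis, with FR left of WT and lines for group means. The immunoproteasome sums near 11.96 in FR and 28.5 in WT, the largest relative gap among the 9 roles plotted, and the ATPases are also lower in FR.

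Assembly needs chaperones that leave the finished particle. Of the 3 chaperones of the regulator base 2 were higher (66.7%, against 34.6% of all tested genes) and 1 lower (33.3%, against 35.5%). Psmd5 (ENSMUSG00000026869) had 109, 105 and 106 CPM in FR and 90.5, 94.0 and 98.6 CPM in WT. It rose, with a log2 fold change of 0.17 ± 0.04 (SE) and an adjusted p of 0.000101 in edgeR. Psmd10 (ENSMUSG00000031429), known as the oncoprotein gankyrin, had 29.0, 28.0 and 30.5 CPM in FR and 32.3, 33.3 and 36.0 CPM in WT. It fell, with a log2 fold change of −0.22 ± 0.06 (SE) and an adjusted p of 0.00131 in edgeR. The groups overlapped for neither. Psmd9 had a log2 fold change of 0.11 ± 0.05 (SE) and an adjusted p of 0.0478 in edgeR, with overlapping values, and its call was lost in 10 alternatives.

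Of the 4 chaperones of the core rings, Psmg1 to Psmg4, none passed in edgeR, DESeq2 or limma-voom, and 0 had an unadjusted p under 0.05 in any of them. In edgeR 70.1% of all tested genes passed. Psmg3 (ENSMUSG00000029551) had 18.2, 18.3 and 19.5 CPM in FR and 15.7, 18.6 and 17.4 CPM in WT. Its log2 fold change was 0.12 ± 0.08 (SE), with an adjusted p of 0.178 in edgeR. Psmg4 (ENSMUSG00000071451) had 15.4, 14.2 and 13.6 CPM in FR and 13.96, 14.8 and 15.5 CPM in WT, a log2 fold change of −0.03 ± 0.08 (SE). The groups overlapped for all 4 genes. Pomp (ENSMUSG00000029649), the maturation factor that the core digests on completion, had 94.9, 97.2 and 96.9 CPM in FR and 101, 106 and 108 CPM in WT. It fell, with a log2 fold change of −0.13 ± 0.03 (SE) and an adjusted p of 0.00217 in edgeR.

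Genes outside the naming rule that belong to the same machinery were read as lists. Of 9 tested subunits and bound factors 4 were higher (44.4%, against 34.6% of all tested genes) and 4 lower (44.4%, against 35.5%). The median log2 fold change of this list was 0.11. Ecpas, an adaptor that holds core and regulator together, had 348, 345 and 344 CPM in FR and 246, 249 and 256 CPM in WT. It rose by 0.46 ± 0.03 (SE) on the log2 scale, with an adjusted p of 2.17e-15 in edgeR. Sem1, a small lid subunit, had 112, 115 and 119 CPM in FR and 143, 151 and 145 CPM in WT, a log2 fold change of −0.34 ± 0.03 (SE) with an adjusted p of 2.73e-10 in edgeR. The groups were apart for both genes. The deubiquitinase Usp14 (0.18) and the ubiquitin receptor Adrm1 (0.16) also rose on the log2 scale, and the thioredoxin-like Txnl1 (−0.14) fell.

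Of 4 genes of transcriptional control 2 were lower, against 35.5% of all tested genes, and 0 were higher, against 34.6%. Nfe2l1 drives proteasome genes when proteasome activity is short. It had 319, 319 and 315 CPM in FR and 423, 413 and 429 CPM in WT, a log2 fold change of −0.41 ± 0.03 (SE) with an adjusted p of 2.02e-14 in edgeR. Nfe2l2, the Nrf2 factor of the oxidative stress response, had 89.2, 83.3 and 86.9 CPM in FR and 132, 124 and 124 CPM in WT. Its log2 fold change was −0.55 ± 0.04 (SE), with an adjusted p of 5.47e-14 in edgeR. Both were lower in every FR library. Ddi2 and Ngly1, the protease and glycanase that process Nfe2l1, had log2 fold changes of 0.01 and −0.10 and did not pass.

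Of 19 genes of ubiquitin supply and shuttling 10 were higher (52.6%, against 34.6% of all tested genes) and 5 lower (26.3%, against 35.5%), and the median log2 fold change was 0.07. The shuttle receptor Rad23b (0.60 ± 0.03) and the stress-induced proteasome partner Zfand2a (0.63 ± 0.04) rose. The shuttle receptor Ubqln2 (−0.93 ± 0.04) and the polyubiquitin gene Ubb (−0.57 ± 0.03) fell, all as log2 fold changes with SE. Ubqln2 had 62.5, 57.6 and 62.1 CPM in FR and 114, 119 and 113 CPM in WT. None of these 4 genes overlapped between the groups, and their adjusted p in edgeR ran from 9.42e-19 for Ubqln2 to 1.56e-14 for Zfand2a.

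Genes that induce the immunoproteasome or load its peptides were mixed. Of 17 tested, 9 were lower (52.9%, against 35.5% of all tested genes) and 6 higher (35.3%, against 34.6%), and the median log2 fold change was −0.15. Irf9 and Stat2, partners in the interferon-activated complex, fell by 1.88 and 1.71 on the log2 scale, with adjusted p of 1.61e-09 and 8.72e-21 in edgeR. They were the 2 genes of this list at least 2-fold lower, a share near the 11.4% of all tested genes. Irf1, a direct activator of the inducible subunits, had 54.7, 51.3 and 53.0 CPM in FR and 65.7, 63.8 and 64.0 CPM in WT. Its log2 fold change was −0.28 ± 0.04 (SE), with an adjusted p of 4.78e-07 in edgeR. Nlrc5, the transactivator of MHC class I genes, went the other way, with 9.71, 8.43 and 8.93 CPM in FR and 6.12, 6.29 and 5.54 CPM in WT. It rose by 0.59 ± 0.11 (SE) on the log2 scale, with an adjusted p of 3.9e-05 in edgeR. The FR and WT values of neither Irf1 nor Nlrc5 overlapped.

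The transporter that carries proteasome products into the endoplasmic reticulum was split between its subunits. Tap1 had 14.9, 15.5 and 15.3 CPM in FR and 23.0, 21.1 and 22.9 CPM in WT, and fell by 0.55 ± 0.07 (SE) on the log2 scale, with an adjusted p of 6.06e-08 in edgeR. Tap2 had 59.8, 61.0 and 56.2 CPM in FR and 45.6, 45.5 and 46.1 CPM in WT, and rose by 0.37 ± 0.04 (SE), with an adjusted p of 1.52e-08. The peptide-loading chaperone Tapbp rose by 0.20 ± 0.03 (SE). In the gene order of RefSeq GRCm38.p6, Psmb9, Tap1, Psmb8 and Tap2 are direct neighbours on chromosome 17. Along that order, a view chosen after the values were seen, the log2 fold changes were −0.28, −0.55, −4.55 and 0.37.

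**Figure D5:**
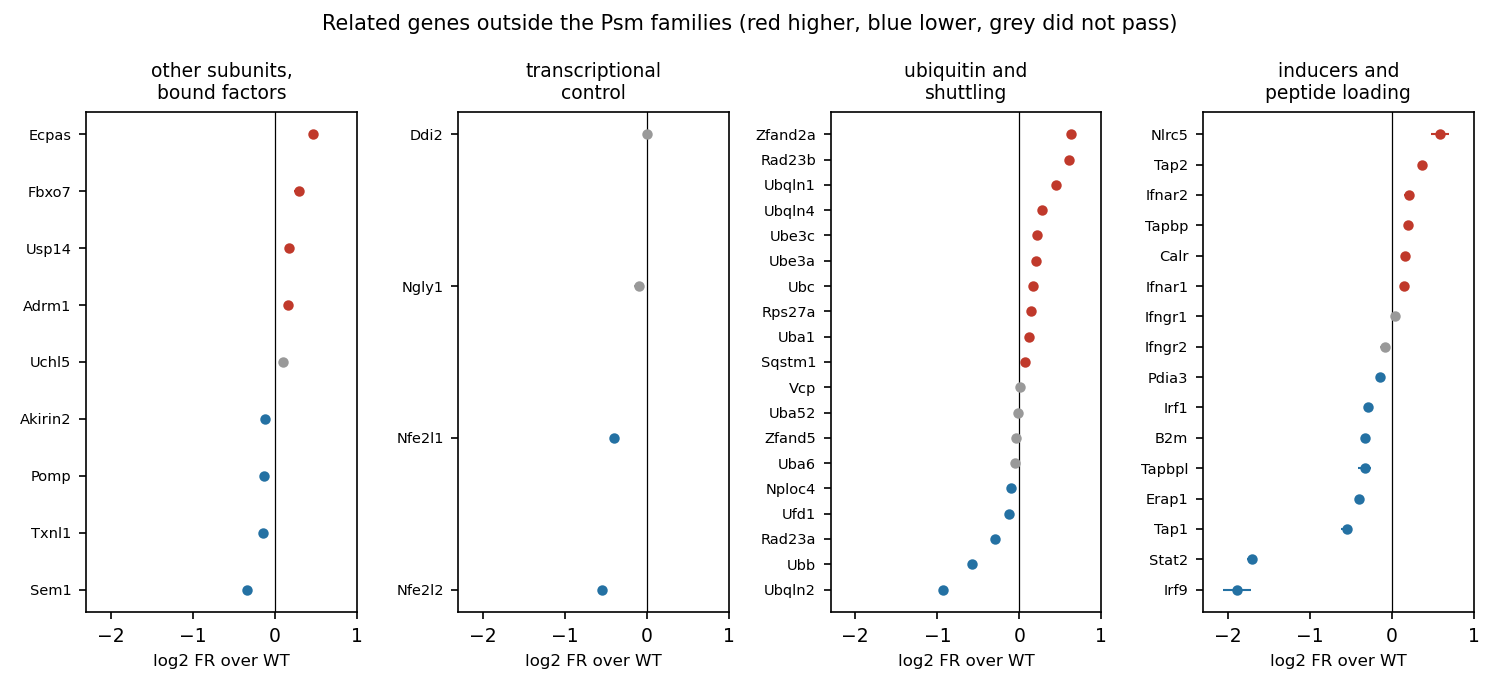
Log2 fold change of FR over WT with its standard error for genes outside the naming rule, by list (red higher, blue lower, grey did not pass). The lowest points are Irf9 at −1.88 and Stat2 at −1.71, and Tap1 and Tap2 lie on opposite sides of 0.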

How the data were processed

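Poly(A) RNA was fragmented, primed with random hexamers and sequenced as paired ends, per the labels' protocols. Strand is not mentioned there, so reads of genes that overlap on opposite strands may not be separated. Per the submitters' processing notes, fastp, HISAT, RSEM and the build GRCm39 were used. Versions are not given in the sources used here. The table the authors deposited holds expected counts for each gene, unscaled, and a gene length in bases. RSEM divides reads that match several genes by estimation, and 20 of the 49 proteasome genes had fractional counts.

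Expected counts were rounded, filtered with filterByExpr, scaled with TMM and fitted with the robust quasi-likelihood test of edgeR 4.0.16 in R 4.3.3, FR against WT, over 14889 genes. Adjustment was by Benjamini and Hochberg over all tested genes, and SE is the log2 fold change divided by the root of F. The common biological coefficient of variation was 3.25%. The chi-square per degree of freedom between libraries within a group was 2.34 to 3.37, so none is a copy of another. The steps were tested on simulated counts. Values per library are given for the inducible catalytic subunits, their counterparts, the activators and inhibitor, and the highest and lowest log2 fold change of each other role. From each list outside the rule, the 2 genes with the smallest adjusted p in each direction are named, with Nfe2l1, Nfe2l2, Pomp, Adrm1, Sem1, Irf1, Nlrc5, Tap1 and Tap2 whatever their values. Of the genes that this rule takes, 1 is counted in its list but is not plotted or reported here. The members and lists were chosen with earlier results of these data known. Marker lists of other cell types were also summed: endothelium gave 0.759 to 1.13 CPM in FR and 0.546 to 0.879 in WT, epithelium 0.519 to 1.01 in FR and 0.585 to 0.688 in WT, adipocytes 0.999 to 1.65 in FR and 0.507 to 1.05 in WT, and chondrocytes 48.0 to 51.0 in FR and 70.3 to 73.1 in WT. Sox9, at a mean of 49.7 CPM in FR and 70.6 CPM in WT, made up nearly all of the chondrocyte sum. Acan was at 0 in every library, and Col2a1 had a mean of 0.102 CPM in FR and 0.725 CPM in WT. Promoter windows are RefSeq entries, and Psmb7 had none. Paaf1 was not analysed here. Alternatives were median-of-ratios factors, library size alone, no filter, a mean of at least 1 CPM, a non-robust fit, a block on replicate number, omission of the 10 most abundant genes or of each library, DESeq2 1.42.0 and limma-voom (limma 3.58.1).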

Additional observations from a re-analysis of the deposited data

How the results depend on the processing

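Of the 47 tested proteasome genes, 34 kept their direction and side of the threshold in every alternative that tested them, and 13 did not. Psmb8, Psmb10, Psmb5, Psme1 and Psme2 were among the 34, with Psmb8 between −4.76 and −4.47 on the log2 scale. The constitutive beta ring counted 2 lower genes in place of 1 with median-of-ratios factors, library size alone, no filter and the replicate block, and 1 to 2 with a library left out, and the gene added by the first of these settings was Psmb4. The ATPases counted 1 higher gene in place of 2 with no filter, and 1 to 2 with a library left out. The base chaperones counted 1 higher gene in place of 2 with median-of-ratios factors, library size alone, no filter, a non-robust fit, DESeq2 and limma-voom, and 1 to 2 with a library left out. The replicate block gave 18 higher and 16 lower proteasome genes, against 18 and 15 without it. Same-numbered libraries did not deviate together (correlations −0.0166, −0.00390 and −0.0280). Whether they were handled together cannot be told from these values. With libraries scaled to the sum of per-length levels, the log2 ratios of the summed levels were −0.0889 for the alpha ring, 0.0093 for the constitutive beta ring, −0.2007 for the ATPases, −0.0008 for the non-ATPase subunits, −0.1313 for the activators, −0.0214 for the inhibitor and −0.0569 for all genes together, in place of −0.03, 0.07, −0.14, 0.06, −0.07, 0.04 and 0.0033. The non-ATPase subunits, the inhibitor and the sum over all genes thereby changed sign. Among genes that never passed, Psmb1 turned to −0.0144 and Psmd4 to −0.0087 with no filter. With a library left out, Psmb1 ranged over −0.0097 to 0.0153, Psmb7 over −0.0308 to 0.0084, Psmd4 over −0.0061 to 0.0237, Psmg2 over −0.0215 to 0.1052 and Psmg4 over −0.0915 to 0.0003. The cause of these shifts was not tested. Depth limits Psmb8 in FR, Psmb9, Psme2b and Psmb11, which have few counts, and with a mean of at least 1 CPM Psme2b was not tested.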

Other observations

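In the gene order of RefSeq GRCm38.p6, the activator genes Psme1 and Psme2 lie close to Rnf31 and Irf9 on chromosome 14. Rnf31 encodes a ligase of linear ubiquitin chains, and its log2 fold change was −0.35 ± 0.07 (SE). The log2 fold changes of the others were −0.39 for Psme1, −0.37 for Psme2 and −1.88 for Irf9. This stretch was chosen after the values were seen. On the other side of Psmb9 lie genes of MHC class II peptide loading, of which H2-DMb1 was lower in FR (log2 fold change −1.25 ± 0.10) while H2-DMb2 (1.44 ± 0.12) and H2-DMa (1.21 ± 0.14) were higher, and H2-DMb1 and H2-DMb2 are close copies whose shared reads RSEM divides by estimation.

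The rows marked as Psm pseudogenes, left out by the rule, numbered 5 and reached at most 3 counts in any library.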
